A study of Mus musculus with 24 samples.

Results

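The machinery that makes ribosomes was followed in blood progenitors of the mouse, over 44 genes of the 23991 gene symbols in the expression tables. The 44 genes were those of a list of ribosome biogenesis genes chosen with earlier results of these data known, and each was found by its symbol. They were ordered by role: 6 genes of RNA polymerase I and the nucleolus, 3 of the box C/D and 4 of the box H/ACA guide particles, 15 of the small subunit and 16 of the large subunit. RNA was measured in 24 libraries of cells sorted from bone marrow of C57BL/6 mice, 3 for each of 4 genotypes in each of 2 populations. GMP are granulocyte-macrophage progenitors. LSK cells are negative for lineage markers and positive for Sca1 and cKit, which includes stem cells and multipotent progenitors. The genotypes were Ern1 fl/fl VavCre together with Flt3-ITD (labelled IRE1_KO_ITD), Flt3-ITD alone (ITD), Ern1 fl/fl VavCre alone (labelled IRE1_KO) and wild type (WT). Flt3-ITD is an internal tandem duplication that makes the receptor tyrosine kinase FLT3 signal without its ligand. Vav-Cre acts in all blood cells, and Ern1 encodes the stress sensor IRE1α of the endoplasmic reticulum. The labels do not give the ages of the mice or say that the 3 libraries of a group came from separate animals. By sex-linked genes, every group but those of ITD held libraries of both sexes, so none of those came from a single animal. The p-values measure the spread between these libraries, which may be technical in part, or wholly so in ITD.

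A ribosome is built in the nucleolus. RNA polymerase I transcribes the long precursor of the ribosomal RNAs, and guide particles then modify its nucleotides. Box C/D particles add methyl groups to ribose, and box H/ACA particles convert uridine to pseudouridine. Large sets of assembly factors fold, cut and export the small and the large subunit. In many cell types the genes of this machinery are targets of MYC and rise with growth signals and with proliferation. In blood, stem cells at rest are known for low rates of protein synthesis, and progenitors for higher ones.

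Values were FPKM (fragments per kilobase, scaled to the mapped fragments of a library), which is scaled for length, so levels of different genes can be set side by side. FPKM summed to between 510361 and 673177 per library, and relative depths, read from ratios of low values, were 0.917 to 1.288 with WT LSK replicate 1 as 1. Marker genes separated the populations: Mpo, a granule enzyme of GMP, ran from 7265 to 10157 FPKM in GMP and from 485 to 1788 FPKM in LSK, while Ly6a, which encodes Sca1, ran from 13.9 to 38.7 FPKM in GMP and from 62.1 to 210.0 FPKM in LSK. By Xist and Y-linked genes, ITD libraries were female in 3 of 3 cases per population, against 1 of 3 in WT. Of the libraries labelled IRE1_KO_ITD, only replicate 3 was female in LSK and only replicate 2 in GMP. Of those labelled IRE1_KO, replicate 1 was male and replicates 2 and 3 female in both populations. Sex thus differed in part between ITD and the group labelled IRE1_KO_ITD, as between ITD and WT. A 1ng tag stands in the column headers of the 3 libraries labelled IRE1_KO LSK and nowhere else, so tag and genotype cannot be told apart there. Ern1, the targeted gene, was higher where the label says knockout. Its LSK levels were 11.0, 11.5 and 12.9 FPKM in the libraries labelled IRE1_KO_ITD, against 3.73, 7.54 and 7.56 in ITD, and 6.64, 7.52 and 8.71 in those labelled IRE1_KO, against 4.74, 4.55 and 3.73 in WT. In GMP the values were 26.6, 28.5 and 33.2 FPKM in the libraries labelled IRE1_KO_ITD, against 13.9, 11.8 and 15.97 in ITD, and 19.3, 24.5 and 17.9 in those labelled IRE1_KO, against 10.4, 9.20 and 7.59 in WT. Whether the floxed exons were read cannot be seen from a value per gene, which therefore tests neither deletion nor label, and the genotypes named here follow the labels.

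All 44 genes were read in every library and passed the filter of at least 1 FPKM in at least 3 libraries. Their levels spanned a wide range. Npm1 (nucleophosmin, a chaperone of the nucleolus) had a median of 515 FPKM over the 24 libraries, Nop10 (the smallest protein of the box H/ACA particle) 497 FPKM and Nhp2 (the RNA-binding protein of the same particle) 225 FPKM. At the other end, Utp20, a very large scaffold of the small-subunit processome, had a median of 5.21 FPKM and Noc3l, a chaperone of the nucleolar large-subunit precursor, one of 6.64 FPKM. The order of the genes was much the same in both wild-type populations at its ends, with Npm1, Nop10, Nhp2 and Nop56 on the first 4 ranks and Noc3l and Utp20 on the last 2.

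**Figure D1:**
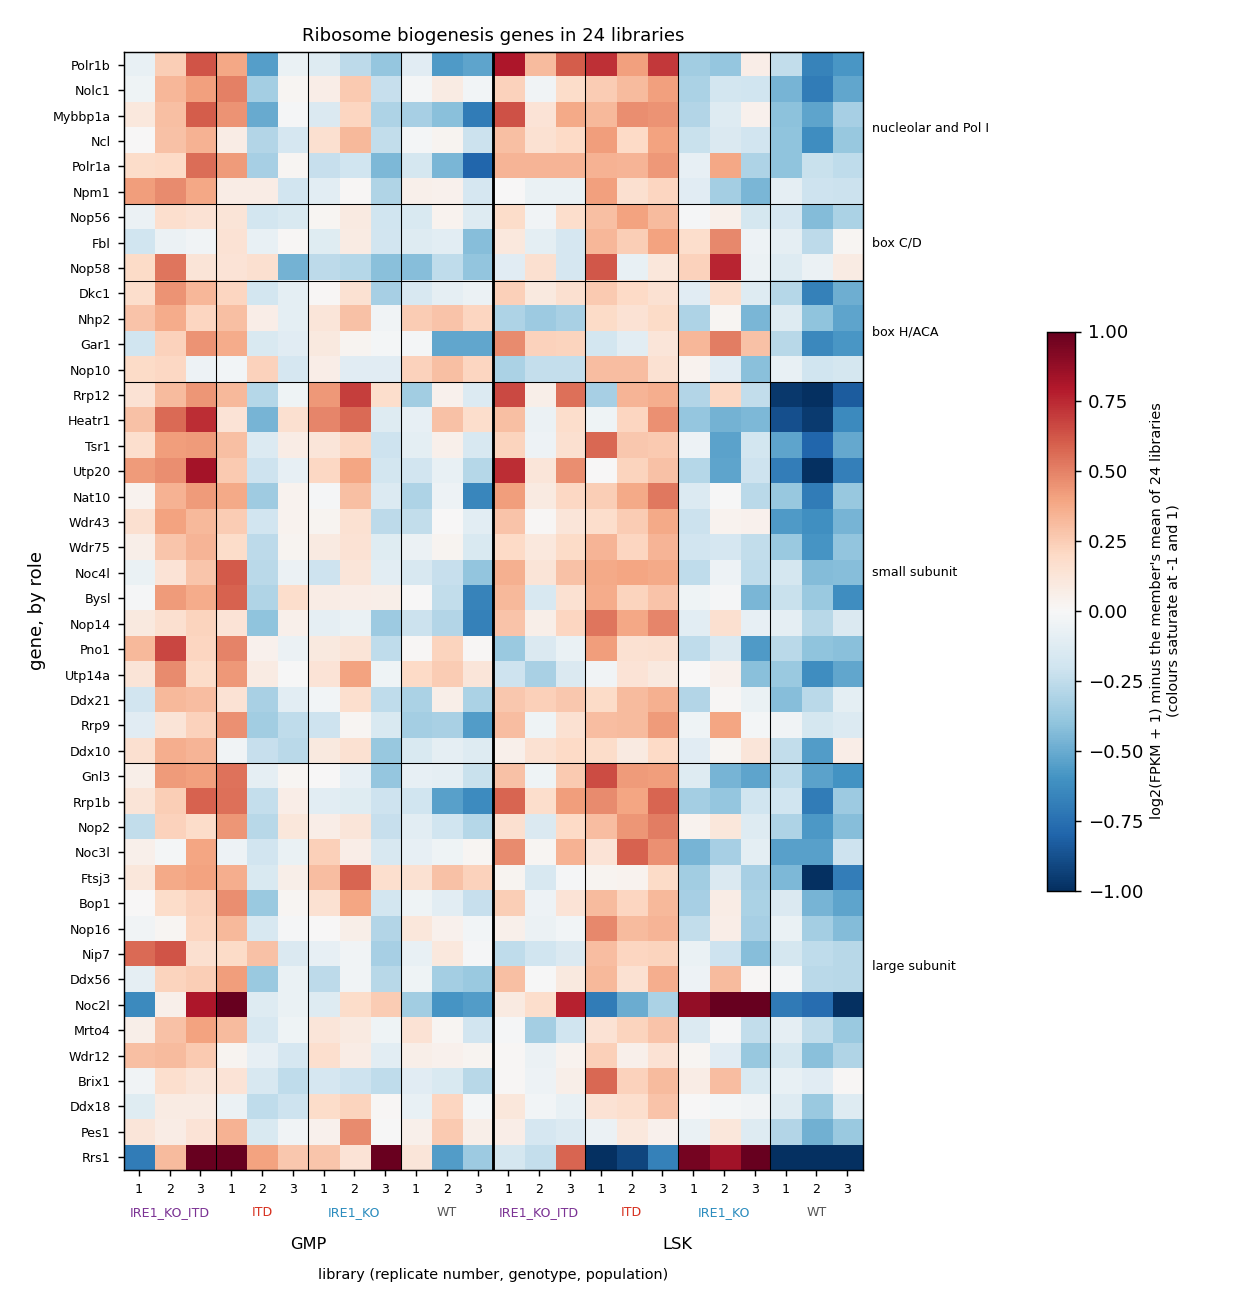
Each row is one of the 44 genes, ordered by role and then by its fold change in ITD LSK, and each column a library, grouped by population (GMP left, LSK right) and genotype. Colour gives log2(FPKM + 1) minus the mean of that gene over the 24 libraries, blue below and red above, with colours saturating at -1 and 1; the 3 WT LSK libraries are blue in nearly every row and the 3 ITD LSK libraries red in most.

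The sum of the 44 genes ranked the groups of LSK cells without overlap between ITD and the rest. It was 3622 to 3834 FPKM in ITD LSK, 2949 to 3234 FPKM in the libraries labelled IRE1_KO_ITD, 2662 to 3136 FPKM in those labelled IRE1_KO and 2376 to 2695 FPKM in WT LSK. The ranges of the last 2 groups overlapped, as did those of the 2 groups labelled with Ern1. Without Npm1, Nop10 and Nhp2, the genes highest in WT LSK, the last 2 groups no longer overlapped. The sums were then 1743 to 2036.5 FPKM in the libraries labelled IRE1_KO and 1317 to 1523 FPKM in WT LSK. They were 2169 to 2279 FPKM in ITD LSK and 1851.5 to 2128 FPKM in the libraries labelled IRE1_KO_ITD. By group mean, ITD was the highest of the 4 genotypes for 38 of the 44 genes in LSK, and WT the lowest for 42. In GMP the sums lay at 3416 to 3834 FPKM in the libraries labelled IRE1_KO_ITD, 2866 to 3656 FPKM in ITD, 2737 to 3303 FPKM in those labelled IRE1_KO and 2883 to 3183 FPKM in WT, and each range overlapped that of ITD. There the libraries labelled IRE1_KO_ITD had the highest mean for 33 of the 44 genes.

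**Figure D2:**
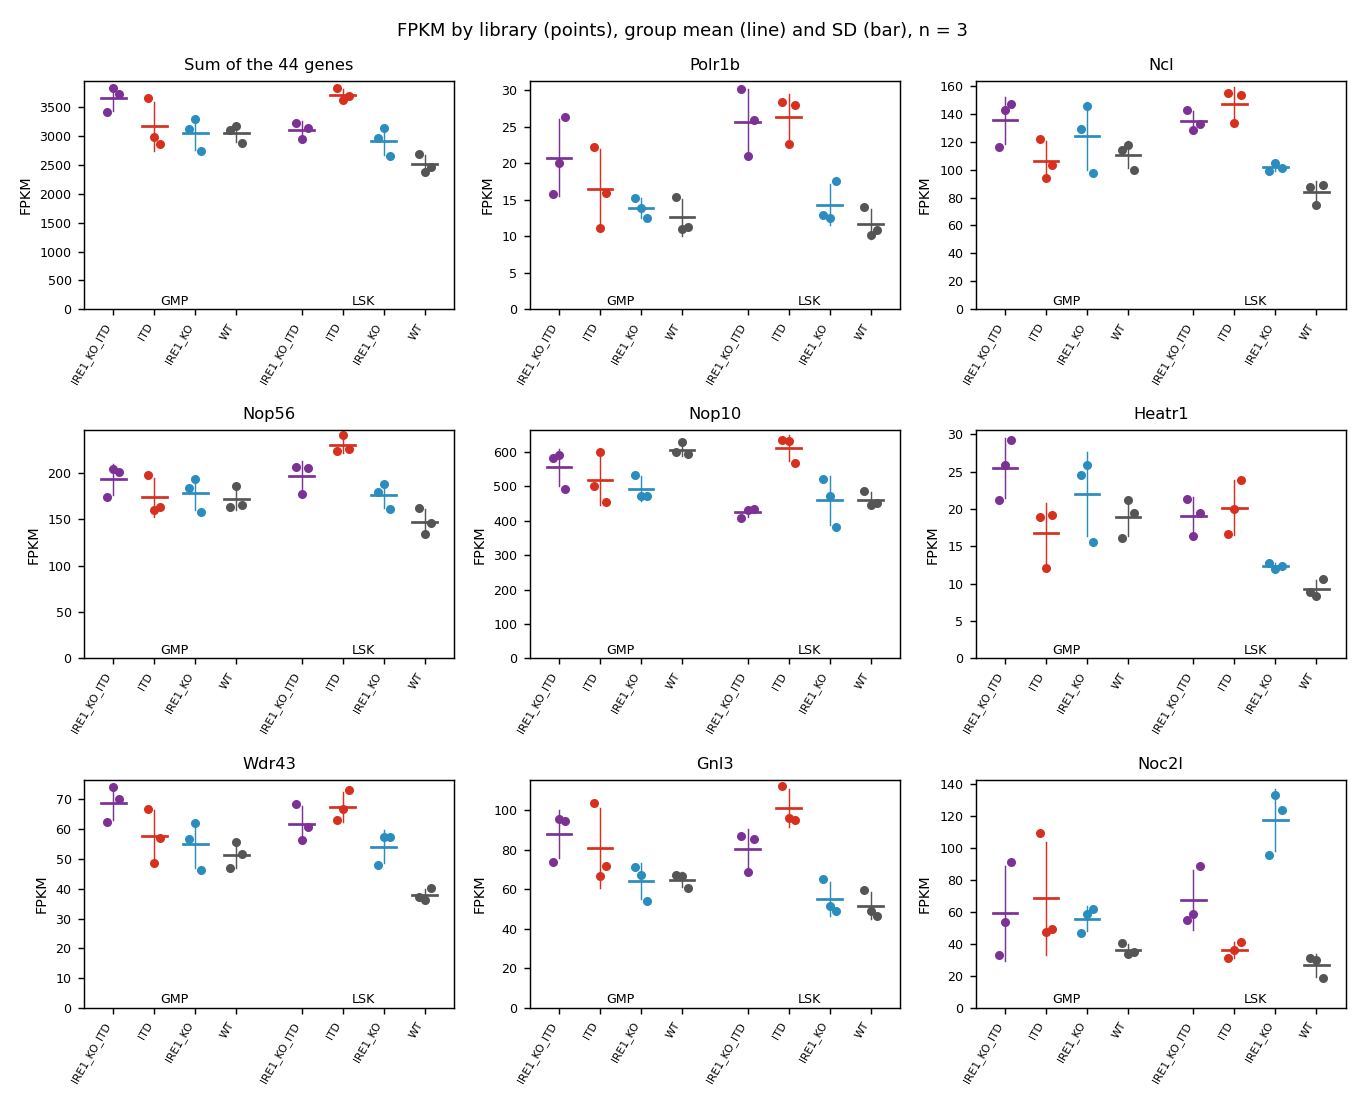
The y axis of each panel is FPKM from 0, for the sum of the 44 genes and for 8 of them; points are the 3 libraries of a group, the horizontal line is the mean and the vertical line the SD, with GMP on the left and LSK on the right. ITD LSK libraries lie above WT LSK libraries in all 9 panels, while the GMP groups overlap in most, and Noc2l is highest in the libraries labelled IRE1_KO LSK.

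ITD LSK cells were set against WT LSK cells to see what the activated receptor does in the most immature compartment. The listed genes rose almost as a whole. Of the 44, 40 passed the test as higher and 0 as lower, where 14.9% of the 11955 genes tested were higher and 7.27% lower. A gene is said to have risen or fallen where its limma adjusted p was under 0.05. The median log2 fold change of the 44 genes was 0.65, against 0.08 over all genes tested, and the single values ran from 0.26 to 1.15, all above 0. For 42 of the 44, the lowest ITD library lay above the highest WT library, which held for 25.8% of all genes tested. Log2 fold changes come from log2(FPKM + 1), so those of low genes are understated, and ± after one is the SE of the limma fit over 3 libraries a group.

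All 6 genes of RNA polymerase I and the nucleolus rose. Polr1b, the second largest subunit of RNA polymerase I (chr2:129100995-129126594 of mm10), had 28.4, 22.6 and 27.9 FPKM in ITD LSK, against 14.0, 10.2 and 10.9 FPKM in WT LSK. The groups were well apart, and the log2 fold change of 1.11 ± 0.17 (limma adjusted p = 0.00213) was the largest of the 6. Polr1a, the largest subunit (chr6:71909053-71984935), stood at 12.9, 12.8 and 13.7 FPKM in ITD LSK and 7.29, 8.37 and 8.18 FPKM in WT LSK. Ncl (nucleolin, chr1:86344719-86359400), an abundant RNA-binding protein of the nucleolus, stood at 155, 133 and 153 FPKM in ITD LSK, against 87.6, 75.0 and 89.1 FPKM in WT LSK, a log2 fold change of 0.80 ± 0.09 (limma adjusted p = 0.00043). Nolc1, a chaperone of guide particles in the nucleolus and Cajal bodies (chr19:46075863-46085530), had 67.7, 70.4 and 75.4 FPKM in ITD LSK and 40.6, 34.5 and 39.0 FPKM in WT LSK. It had the smallest adjusted p of the 44 genes (0.89 ± 0.09, limma adjusted p = 0.00036). Mybbp1a, a nucleolar partner of RNA polymerase I (chr11:72441355-72451768), had 105, 115 and 115 FPKM in ITD LSK, against 62.7, 57.7 and 66.3 FPKM in WT LSK. Npm1, the most abundant, changed least of the 6, with 696, 587 and 608 FPKM in ITD LSK and 494, 454 and 453 FPKM in WT LSK (0.43 ± 0.10).

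Of the box C/D core proteins, 2 of 3 rose. Nop56 (chr2:130274430-130279313), a scaffold of the particle, had 224, 240.2 and 226 FPKM in ITD LSK, against 162, 134 and 146 FPKM in WT LSK (0.64 ± 0.09, limma adjusted p = 0.00175). Fbl (fibrillarin, the methyltransferase, chr7:28169710-28179269) was at 121, 114 and 127 FPKM in ITD LSK and 90.0, 79.7 and 97.3 FPKM in WT LSK. Its groups did not overlap, but its adjusted p of 0.0379 lay above 0.05 in 10 of 15 other settings, up to 0.143. Nop58, the partner scaffold, did not pass: it had 139, 85.3 and 97.6 FPKM in ITD LSK, against 82.3, 86.4 and 95.3 FPKM in WT LSK. Replicate 2 of ITD LSK lay within the range of WT LSK, and replicates 1 and 3 above it. All 4 box H/ACA proteins rose, by 0.41 to 0.69. Dkc1 (dyskerin, the pseudouridine synthase, chrX:75095854-75109777) had 101, 97.0 and 93.4 FPKM in ITD LSK, against 68.7, 52.4 and 59.7 FPKM in WT LSK. Nhp2 was at 241, 233 and 241 FPKM in ITD LSK and 192, 159 and 146 FPKM in WT LSK, and Nop10 at 634, 633 and 568 FPKM in ITD LSK, against 486, 446 and 451 FPKM in WT LSK. Both were higher in every ITD library than in any WT library. Of 15 other settings, Nop10 lost its call in 6 (limma adjusted p up to 0.0796) and Nhp2 in 2 (up to 0.0674).

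Among the 15 factors of the small subunit, 14 rose. Rrp12, an export factor of pre-ribosomes, had the largest log2 fold change of all 44 (1.15 ± 0.23), with 9.66, 16.03 and 16.3 FPKM in ITD LSK against 5.89, 4.60 and 6.54 FPKM in WT LSK. Heatr1, a scaffold of the processome that is also needed for transcription by RNA polymerase I, had 16.6, 20.0 and 23.9 FPKM in ITD LSK and 8.85, 8.32 and 10.6 FPKM in WT LSK. The WD-repeat proteins Wdr75 (chr1:45795166-45823619) and Wdr43 (chr17:71615895-71659031), both of the same early processome module, had the smallest p of the 15. Wdr75 stood at 35.2, 32.2 and 35.1 FPKM in ITD LSK, against 21.04, 18.0 and 20.8 FPKM in WT LSK (0.75 ± 0.08, limma adjusted p = 0.000382). Wdr43 stood at 63.1, 66.7 and 73.0 FPKM in ITD LSK, against 37.3, 36.1 and 40.1 FPKM in WT LSK (0.82 ± 0.10, limma adjusted p = 0.000767). In Noc4l (chr5:110648418-110653417), a partner of Nop14 on the small subunit, the 3 ITD LSK libraries lay within 67.3 to 67.8 FPKM, against 45.5, 37.9 and 38.1 FPKM in WT LSK. Ddx10, an RNA helicase, was the member of this role that missed the threshold, with 21.7, 20.2 and 21.9 FPKM in ITD LSK and 15.8, 12.6 and 20.0 FPKM in WT LSK (limma adjusted p = 0.0588).

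Of the 16 large-subunit factors, 14 rose. Gnl3 (nucleostemin, a GTPase of the nucleolus, chr14:31012433-31019152) had 112, 95.9 and 95.4 FPKM in ITD LSK, against 59.5, 48.8 and 46.6 FPKM in WT LSK (0.96 ± 0.14, limma adjusted p = 0.00164). Nop2, the methyltransferase of the large ribosomal RNA (chr6:125131909-125144753), had 57.3, 62.9 and 65.8 FPKM in ITD LSK and 37.0, 30.5 and 34.0 FPKM in WT LSK (0.86 ± 0.11, limma adjusted p = 0.00115). Rrp1b (chr17:32036100-32062865), a nucleolar protein of large-subunit precursors, had 23.9, 22.6 and 25.9 FPKM in ITD LSK, against 14.7, 10.05 and 12.97 FPKM in WT LSK. The 3 proteins of the PeBoW complex, which is needed to mature the large ribosomal RNAs, all rose: Bop1 by 0.67 ± 0.13, Wdr12 by 0.44 ± 0.11 and Pes1 by 0.41 ± 0.10. The 2 that did not pass were Noc2l (limma adjusted p = 0.170) and Rrs1 (limma adjusted p = 0.454), whose libraries varied most.

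**Figure D3:**
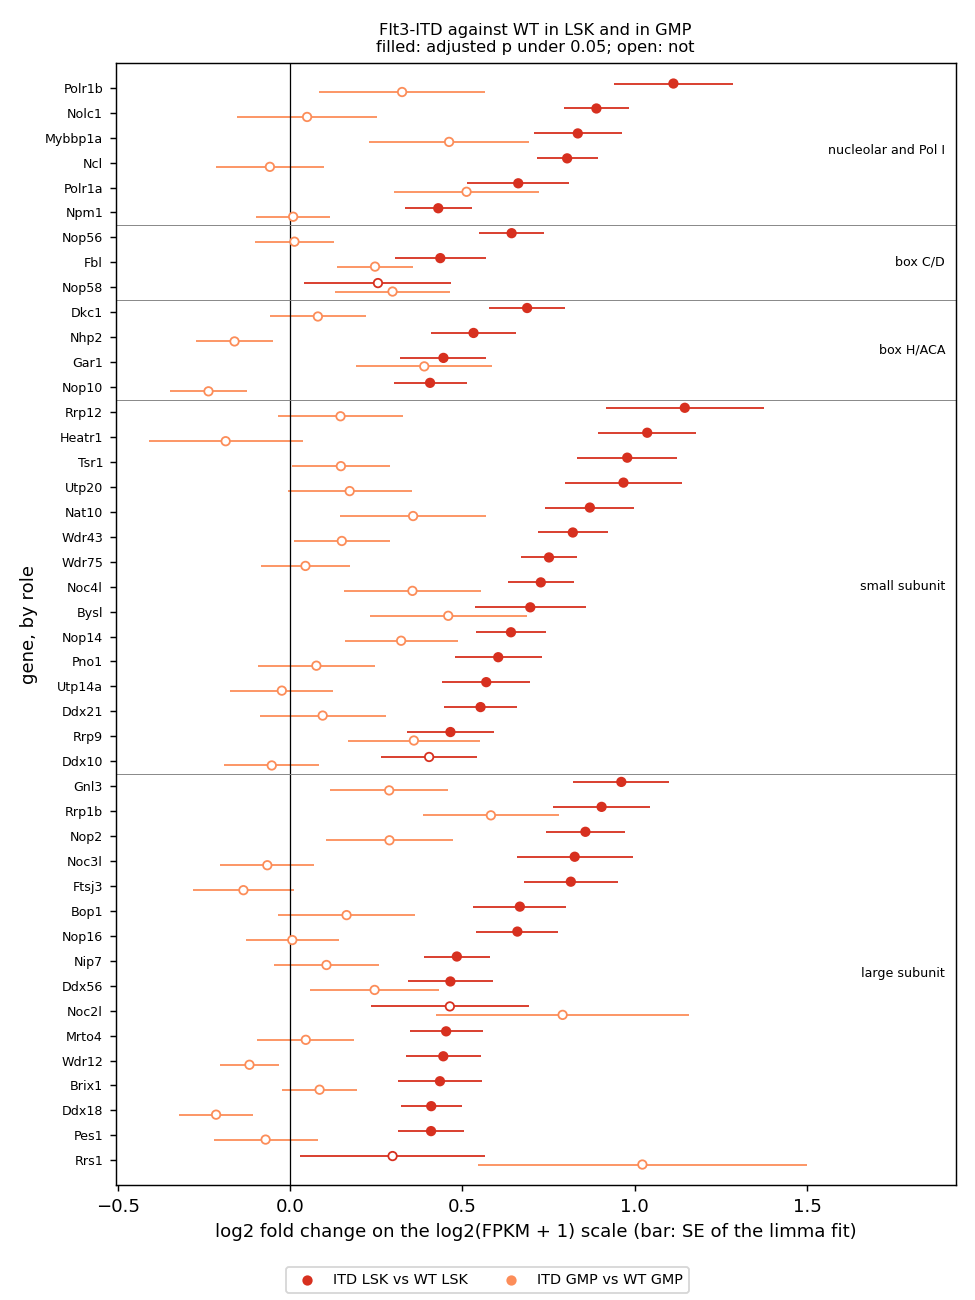
Points give the log2 fold change of ITD over WT for each of the 44 genes, dark red in LSK and light orange in GMP, on the log2(FPKM + 1) scale, with bars of 1 SE and filled points where the limma adjusted p was under 0.05. In LSK all 44 points lie right of 0 and 40 are filled; in GMP no point is filled and they lie from -0.24 to 1.02.

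Of 102 other ribosome biogenesis genes from a second list, also chosen with earlier results known, 53 rose and 1 fell in ITD LSK. The 4 with the smallest p were Nob1 (the nuclease that finishes the small ribosomal RNA, 0.53 ± 0.07), Ppan (0.64 ± 0.09) and Nifk (0.54 ± 0.08), both large-subunit factors, and Lsg1 (a GTPase of late large subunits, 0.52 ± 0.08). Other genes moved in the same comparison. Of 20 S phase genes, 11 rose, and their summed level was 2253 to 2379 FPKM in ITD LSK and 1713 to 1946 FPKM in WT LSK, while 4 of 20 G2/M genes rose (1249 to 1558 FPKM in ITD LSK and 1049 to 1317 FPKM in WT LSK). Markers of other blood cells fell: 9 of 9 tested B cell genes (41.8 to 91.8 FPKM in ITD LSK, 163 to 326 FPKM in WT LSK), 9 of 10 erythroid genes (231 to 703 FPKM in ITD LSK, 835 to 1923 FPKM in WT LSK) and 10 of 10 late neutrophil genes (478 to 2417 FPKM in ITD LSK, 4934 to 9989 FPKM in WT LSK). Of the 8 LSK markers 4 fell (275 to 338 FPKM in ITD LSK, 427 to 511 FPKM in WT LSK), 1 of 8 GMP markers, 2 of 10 monocyte genes and 1 of 4 tested basophil and mast cell genes rose, and no gene of these lists was at 0 in all libraries. Their part in the result was not tested, and in sorted bulk RNA more cells of one kind and more RNA per cell cannot be told apart.

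The count of 40 was 34 under quantile normalization and 34 with a median-ratio size factor, 0 of them lower in either case. The split of all calls moved more, with 1781 genes higher and 869 lower as deposited, 1251 and 1116 after quantile normalization and 1197 and 1236 with the size factor. With sex as a covariate 29 members were higher and 0 lower. All calls then fell to 871 higher and 513 lower, from 22.2% to 11.6% of all genes tested. Leaving out single libraries gave 30 to 38 members.

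The promoters of these genes could be compared, since they rose together. RefSeq windows of 300 bases on GRCm38.p6, from 250 bases before to 50 after the transcription start, were at hand for 39 of the 44 genes, 43 windows in all, since a gene can have several (Npm1, Fbl, Rrp12, Bop1 and Rrs1 were not matched). The hexamer CACGTG, the E-box core that MYC and MAX bind and its own reverse complement, was searched in them. It stood in at least 1 window of 7 of the 39 genes (17.9%), of 20.7% of 82 other biogenesis genes, of 12% of 8796 genes tested in LSK and of 8.1% of 27025 genes with a window. Counted by window, it stood in 7 of 43 (16.3%), against 7.2% of all 32851 windows. The 7 genes were Mybbp1a, Nop2, Pes1, Pno1, Tsr1, Utp20 and Wdr43. Their median log2 fold change in ITD LSK was 0.83, and that of the 32 genes without the hexamer was 0.64, with ranges of 0.41 to 0.98 and 0.26 to 1.11. These are descriptions of letters in a window, not of binding. Below are 3 windows with the hexamer, in capitals, of genes described above, and for comparison that of Nolc1, which rose by 0.89 with none. Each runs 5′ to 3′ on the strand of its gene. The first base of the hexamer lies 40 bases after the start in Mybbp1a, 17 after it in Wdr43 and at position -60 in Nop2.
Mybbp1a (chr11:72441077-72441376, plus strand): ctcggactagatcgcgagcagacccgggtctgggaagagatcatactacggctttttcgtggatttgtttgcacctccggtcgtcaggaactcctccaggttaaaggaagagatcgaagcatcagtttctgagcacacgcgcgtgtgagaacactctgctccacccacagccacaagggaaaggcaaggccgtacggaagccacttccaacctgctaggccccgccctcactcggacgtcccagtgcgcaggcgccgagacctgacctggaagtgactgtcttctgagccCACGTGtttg
Nop2 (chr6:125131633-125131932, plus strand): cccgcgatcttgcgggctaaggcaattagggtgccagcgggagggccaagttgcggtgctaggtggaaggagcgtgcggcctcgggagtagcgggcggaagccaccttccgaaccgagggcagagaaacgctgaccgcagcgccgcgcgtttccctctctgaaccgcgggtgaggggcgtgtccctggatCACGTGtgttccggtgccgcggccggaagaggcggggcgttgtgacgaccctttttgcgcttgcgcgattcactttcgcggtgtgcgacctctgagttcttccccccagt
Wdr43 (chr17:71615965-71616264, plus strand): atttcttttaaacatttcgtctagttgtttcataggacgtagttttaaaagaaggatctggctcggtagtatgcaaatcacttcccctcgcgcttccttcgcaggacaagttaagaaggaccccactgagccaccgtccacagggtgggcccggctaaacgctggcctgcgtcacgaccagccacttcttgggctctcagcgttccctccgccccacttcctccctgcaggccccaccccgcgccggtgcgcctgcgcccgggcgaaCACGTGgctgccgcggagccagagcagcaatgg
Nolc1 (chr19:46075597-46075896, plus strand): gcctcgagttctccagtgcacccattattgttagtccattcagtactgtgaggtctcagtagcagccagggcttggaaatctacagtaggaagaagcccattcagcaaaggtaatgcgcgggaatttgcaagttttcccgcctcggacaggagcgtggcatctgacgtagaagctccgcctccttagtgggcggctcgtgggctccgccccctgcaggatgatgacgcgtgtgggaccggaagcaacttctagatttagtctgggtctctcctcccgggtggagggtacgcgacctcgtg

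ITD GMP cells were set against WT GMP cells as the same question one step on. None of the 44 genes passed the test in either direction with limma, where 7.37% of 11249 genes tested were higher and 3.32% lower, and 3 reached an unadjusted p under 0.05. The median log2 fold change was 0.13, against 0.07 over all genes. The genes with the smallest p were Rrp1b, Polr1a and Fbl. Rrp1b had 25.4, 14.2 and 17.8 FPKM in ITD GMP, against 14.7, 11.3 and 10.6 FPKM in WT GMP (0.58 ± 0.20, limma adjusted p = 0.0817). Polr1a had 13.6, 7.66 and 10.1 FPKM in ITD GMP and 8.65, 6.97 and 5.30 FPKM in WT GMP (limma adjusted p = 0.134). The groups overlapped for both. Those of Fbl did not, with 106, 90.8 and 96.7 FPKM in ITD GMP and 87.7, 89.0 and 71.0 FPKM in WT GMP (limma adjusted p = 0.167). In all, 3 of the 44 genes had no overlap upward, which held for 21.8% of all genes. The others were Noc2l (0.79 ± 0.37, limma adjusted p = 0.177) and Rrs1 (1.02 ± 0.48, limma adjusted p = 0.179).

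The first ITD GMP library stood apart. Replicate 1 had the highest value of the 3 ITD GMP libraries for 40 of the 44 genes, and a summed level of 3656 FPKM, against 2992 and 2866 FPKM in replicates 2 and 3. Its late neutrophil genes summed to 2431 FPKM, against 94685 and 37924 FPKM in the other two, and this difference was not tested as a source of the spread. Without it the median log2 fold change of the 44 genes was -0.02, with 0 called, and without replicate 2 it was 0.23 with 2 called. The split of all calls was 829 higher and 374 lower as deposited, 616 and 624 after quantile normalization and 887 and 842 with a size factor, when 1 member was lower. For Ncl and Heatr1, which rose in LSK, the groups overlapped here. Ncl had 122, 94.3 and 103 FPKM in ITD GMP, against 114, 118 and 99.5 FPKM in WT GMP, and Heatr1 had 18.9, 12.1 and 19.2 FPKM in ITD GMP and 16.1, 21.2 and 19.5 FPKM in WT GMP. Of the other biogenesis genes 1 of 102 rose and 2 fell: Tcof1, a cofactor of RNA polymerase I, rose by 0.89 ± 0.20, Npm3, a relative of nucleophosmin, fell by 0.86 ± 0.18, and Ebna1bp2, a large-subunit factor, fell by 0.36 ± 0.10. In the same comparison 0 S phase genes rose and 1 of 20 fell. Of the markers, 6 of 9 tested B cell genes, 8 of 10 erythroid genes, 4 of 6 tested basophil and mast cell genes and 5 of 8 GMP markers fell, and 3 of 10 monocyte genes rose.

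The difference between the populations was tested itself, in a fit of all 24 libraries. The ITD effect in GMP was below that in LSK for 41 of 44 genes, with a median difference of -0.52 against 0.00 over all 12348 genes tested. For 17 genes the difference passed the test as lower and for 0 as higher, where 7.10% of all genes were lower and 6.45% higher. Heatr1 differed most, by -1.22 ± 0.27 (limma adjusted p = 0.0088). Among the other roles, Ncl differed by -0.86 ± 0.18 and Nolc1 by -0.84 ± 0.23, Nop56 by -0.63 ± 0.15, and the box H/ACA proteins Nop10, Nhp2 and Dkc1 by -0.64 ± 0.15, -0.69 ± 0.17 and -0.61 ± 0.18. Wdr75 (-0.71 ± 0.15), Tsr1 (-0.83 ± 0.21), Ftsj3 (-0.95 ± 0.20), Ddx18 (-0.62 ± 0.13) and Wdr12 (-0.56 ± 0.13) completed the 3 genes with the smallest p of each subunit. Tsr1 is a factor of late small subunits, Ftsj3 a methyltransferase and Ddx18 an RNA helicase of large-subunit precursors. The count ranged from 11 to 27 when single libraries were left out, highest without ITD GMP replicate 1 and lowest without WT LSK replicate 2 or WT GMP replicate 2. S phase genes showed the like difference, 10 of 20 lower, as did 5 of 20 G2/M genes and 24 of 102 other biogenesis genes.

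WT GMP cells were set against WT LSK cells for the step of maturation without a mutation. In the wild type 20 of the 44 genes stood higher in GMP and 0 lower, where 19.0% of 12348 genes were higher and 31.3% lower. The median log2 fold change of the 44 genes was 0.25, against -0.11 over all genes, a median that other scalings put at 0.00 to 0.02 while they called 17 to 27 of the 44 as higher. All calls were 2341 higher and 3871 lower as deposited, 3171 and 3034 after quantile normalization and 3247 and 3264 with a size factor. Ftsj3 had the smallest p, with 55.7, 61.6 and 58.7 FPKM in WT GMP, against 36.4, 23.6 and 30.6 FPKM in WT LSK (0.95 ± 0.14, limma adjusted p = 2.13e-05). Heatr1 (0.96 ± 0.19), Rrp12 (0.87 ± 0.22) and Utp14a (0.70 ± 0.14), all of the small subunit, rose. Utp14a, an activator of a helicase of the processome, had 19.1, 19.8 and 18.1 FPKM in WT GMP, against 12.5, 10.4 and 11.2 FPKM in WT LSK. The box H/ACA proteins were higher in GMP except Gar1. Nhp2 stood at 251, 256 and 245 FPKM in WT GMP, against 192, 159 and 146 FPKM in WT LSK (0.61 ± 0.12), and Nop10 at 599.9, 629 and 594 FPKM in WT GMP, against 486, 446 and 451 FPKM in WT LSK (0.40 ± 0.11). Dkc1 was higher by 0.38 ± 0.13, Nolc1 by 0.57 ± 0.16, Ncl by 0.39 ± 0.13, Pes1 by 0.50 ± 0.13 and Wdr12 by 0.34 ± 0.09. None of the 3 box C/D proteins passed. Of the other biogenesis genes 24 of 102 were higher and 9 lower, with Gltscr2, a nucleolar protein, at -1.12 ± 0.12 and the small-subunit factors Mphosph10 (0.92 ± 0.13) and Ltv1 (0.76 ± 0.10) and the GTPase Lsg1 (0.62 ± 0.11) higher. S phase genes were higher in 11 of 20 cases and lower in 1, and G2/M genes higher in 9 and lower in 1. Of the markers of the populations themselves, 8 of 8 GMP markers were higher and 8 of 8 LSK markers lower. Of 10 monocyte genes 9 were higher and 1 lower. Also higher were 7 of 10 late neutrophil genes and 6 of 6 tested basophil and mast cell genes, while 3 of 10 erythroid genes were lower.

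The libraries labelled IRE1_KO_ITD LSK were set against those labelled IRE1_KO LSK to see the effect of Flt3-ITD on the second background. No library was shared with ITD and WT, but both comparisons came from the same fit, with a shared estimate of the spread. The reference libraries here are those with the header tag, so the tag and Flt3-ITD cannot be told apart in this comparison. Here 13 of 44 genes rose and 2 fell, where 11.7% of all genes were higher and 19.6% lower, and the median log2 fold change was 0.19 against -0.04 over all genes. All 13 that rose had also risen in ITD LSK against WT LSK. Since 40 of the 44 had risen there, such an overlap was nearly given in advance. The rise was in the polymerase I and nucleolar genes, 4 of 6, and in the small subunit, 6 of 15, with 3 of 16 in the large subunit and 0 of 7 among the guide particles. Polr1b had 30.1, 21.1 and 26.0 FPKM in the libraries labelled IRE1_KO_ITD, against 12.9, 12.5 and 17.6 FPKM in those labelled IRE1_KO (0.80 ± 0.17, limma adjusted p = 0.00522). Ncl had 143, 129 and 133 FPKM in the libraries labelled IRE1_KO_ITD, against 99.1, 105 and 101 FPKM in those labelled IRE1_KO (0.40 ± 0.09). Mybbp1a stood at 130.5, 92.1 and 109 FPKM in the libraries labelled IRE1_KO_ITD, against 67.9, 76.6 and 86.2 FPKM in those labelled IRE1_KO. In none of these 3 genes did the groups overlap, as was the case upward for 19.5% of all genes.

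Utp20 rose by 0.78 ± 0.17, Noc4l by 0.44 ± 0.10 and Wdr75 by 0.37 ± 0.08 in this comparison, and of the large-subunit factors Rrp1b rose by 0.70 ± 0.14 and Gnl3 by 0.54 ± 0.14. Noc2l and Rrs1 fell, by 0.81 ± 0.23 and 0.95 ± 0.27. In both, the tagged libraries labelled IRE1_KO lay above all other LSK libraries. Noc2l is a chaperone that pairs with other NOC proteins on the large subunit and also binds histones, and Rrs1 is known in yeast for bringing the 5S particle into the large subunit. Among other biogenesis genes 13 rose and 6 fell, with Pelp1 (1.11 ± 0.16), Nol10 (0.80 ± 0.12), Nle1 (0.67 ± 0.11) and Mdn1 (0.62 ± 0.12) first by p. B cell genes (9 of 9), erythroid genes (9 of 10) and late neutrophil genes (10 of 10) were lower here too, with summed levels of 30.7 to 36.6, 514 to 742 and 116 to 396 FPKM in the libraries labelled IRE1_KO_ITD, against 229 to 281, 1393 to 2604 and 4712 to 11745 FPKM in those labelled IRE1_KO. Also lower were 5 of 8 LSK markers, 2 of 8 GMP markers and 3 of 10 monocyte genes. In ITD LSK against WT LSK, by contrast, 1 of 8 GMP markers and 2 of 10 monocyte genes had risen and none had fallen. Of 4 tested basophil and mast cell genes 1 rose and 1 fell, and the part of all these markers in the result was not tested. S phase genes rose in 1 case of 20 and G2/M genes in 3. Without replicate 1 of the group labelled IRE1_KO_ITD LSK 8 genes passed. Quantile normalization gave 21 genes higher and 2 lower, and turned the split of all calls to 2070 higher and 1824 lower, from 1399 and 2340 as deposited.

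In GMP the same pair of labels gave 3 genes higher and 0 lower, where 8.47% of all genes were higher and 4.50% lower, and a median of 0.20 against 0.08. Npm1 stood at 703, 728 and 686 FPKM in the libraries labelled IRE1_KO_ITD GMP, against 487, 529 and 425 FPKM in those labelled IRE1_KO GMP (0.56 ± 0.11, limma adjusted p = 0.00832). Nop58 stood at 103, 131 and 98.3 FPKM in the libraries labelled IRE1_KO_ITD GMP, against 74.8, 73.6 and 67.0 FPKM in those labelled IRE1_KO GMP (0.61 ± 0.17, limma adjusted p = 0.0383). Nip7, a small RNA-binding factor of pre-ribosomes, had 43.3, 45.3 and 32.5 FPKM in the libraries labelled IRE1_KO_ITD GMP, against 27.3, 28.2 and 22.8 FPKM in those labelled IRE1_KO GMP (0.60 ± 0.15, limma adjusted p = 0.0275). The groups did not overlap for these 3, which held upward for 22.5% of all genes. The calls of Nop58 and Nip7 ended in 9 and 7 of 14 other settings, and the count was 1 without replicate 1 or 2 of the group labelled IRE1_KO_ITD GMP, or without replicate 1 or 3 of that labelled IRE1_KO GMP. With a size factor 1 gene passed, and the split of all calls was 714 higher and 731 lower, against 953 and 506 as deposited. Of the other biogenesis genes 5 rose and 0 fell, with Ddx52 (0.45 ± 0.11), Nifk (0.32 ± 0.08), Nol6 (0.70 ± 0.19) and Nmd3 (0.41 ± 0.12) first, and 5 of 20 S phase genes fell. Markers of other blood cells fell as well. They were 9 of 9 tested B cell genes (summed level 43.8 to 45.2 FPKM in the libraries labelled IRE1_KO_ITD GMP, 96.5 to 352 FPKM in those labelled IRE1_KO GMP) and 9 of 10 erythroid genes (35.7 to 72.3 FPKM in the libraries labelled IRE1_KO_ITD GMP, 465 to 1131 FPKM in those labelled IRE1_KO GMP). Also lower were 2 of 10 late neutrophil genes (1498 to 15125 FPKM in the libraries labelled IRE1_KO_ITD GMP, 17646 to 85198 FPKM in those labelled IRE1_KO GMP) and 4 of 6 tested basophil and mast cell genes (182 to 280.4 FPKM in the libraries labelled IRE1_KO_ITD GMP, 345 to 745 FPKM in those labelled IRE1_KO GMP). Of the 8 GMP markers 3 fell, while 2 of 10 monocyte genes rose. The sums of the B cell, erythroid, late neutrophil and basophil and mast cell genes did not overlap between the groups, and their part in the result was not tested.

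The label IRE1_KO was compared with WT to ask what the deletion, as labelled, does without the oncogene. In LSK 12 of the 44 genes were higher in the libraries labelled IRE1_KO and 0 lower, a share of the list close to the 21.0% of all genes that were higher (2.72% were lower). The median log2 fold change of the 44 genes was 0.26, and that of all genes 0.14. Quantile normalization moved the all-gene median to -0.08 and that of the 44 genes to 0.014, and left 3 members higher. A median-ratio size factor moved the all-gene median to -0.03 and that of the 44 genes to 0.075, with 5 members higher and 1 lower. The split of all calls was 2506 higher and 325 lower as deposited, 1408 and 1166 after quantile normalization and 1538 and 858 with the size factor. The tag on these libraries and the genotype cannot be told apart.

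Noc2l and Rrs1 stood out. Noc2l (chr4:156236010-156247616) had 95.7, 133 and 124 FPKM in the libraries labelled IRE1_KO LSK, against 31.2, 29.9 and 18.4 FPKM in WT LSK (2.13 ± 0.23, limma adjusted p = 5.88e-05). Rrs1, a gene of 1 exon (chr1:9545408-9547455), had 34.6, 31.8 and 41.2 FPKM in the libraries labelled IRE1_KO LSK, against 7.42, 8.16 and 4.38 FPKM in WT LSK (2.30 ± 0.27, limma adjusted p = 9.8e-05). In both genes the 3 tagged libraries lay above all 9 other LSK libraries, which reached 88.6 FPKM for Noc2l and 26.4 FPKM for Rrs1. That was so for 2 of 44 members (4.55%) and for 10.9% of all genes tested in LSK. Exons of Noc2l overlap those of Samd11 on the other strand, and the sources do not settle whether strand was used in counting, so reads of these genes may not be told apart. In GMP, where no library has the tag, both genes were also higher in every library labelled IRE1_KO than in any of WT, which held for 17.1% of all genes, but neither passed. Noc2l had 46.9, 58.5 and 61.5 FPKM in the libraries labelled IRE1_KO GMP, against 40.3, 33.8 and 34.6 FPKM in WT GMP (0.60 ± 0.37, limma adjusted p = 0.521). Rrs1 had 21.2, 19.2 and 35.3 FPKM in the libraries labelled IRE1_KO GMP, against 18.9, 11.4 and 13.2 FPKM in WT GMP (0.73 ± 0.48, limma adjusted p = 0.544).

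Gar1, a small protein of the box H/ACA particle, was next, with 54.0, 61.5 and 52.5 FPKM in the libraries labelled IRE1_KO LSK, against 35.1, 26.9 and 28.2 FPKM in WT LSK (0.88 ± 0.12, limma adjusted p = 0.000354). Its call held under all 14 other settings. Dkc1 stood higher by 0.46 ± 0.11, Rrp12 by 0.91 ± 0.23, Wdr43 by 0.50 ± 0.10, Wdr75 by 0.25 ± 0.08, Nop2 by 0.44 ± 0.11, Nolc1 by 0.33 ± 0.09 and Ncl by 0.28 ± 0.09. Each of these 7 lost its call in at least 2 other settings, and Wdr75 had a value of -0.05 under quantile normalization. Leaving out single libraries gave 4 to 13 calls, the lowest without WT LSK replicate 2, and without replicate 2 of the group labelled IRE1_KO LSK there were 6. Other biogenesis genes rose in 22 of 102 cases and fell in 2, with Nol9 (1.73 ± 0.16), Nop9 (1.12 ± 0.19) and Utp18 (0.82 ± 0.13) higher and Npm3 (-1.425 ± 0.192) lower. Of 20 S phase genes 6 rose, and of 20 G2/M genes 1, with summed S phase levels of 2032 to 2420 FPKM in the libraries labelled IRE1_KO and 1713 to 1946 FPKM in WT LSK.

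In GMP none of the 44 genes passed between the libraries labelled IRE1_KO and WT with limma, where 0.0267% of all genes were higher and 0.507% lower, and 2 had an unadjusted p under 0.05. The smallest p belonged to Rrp12 (0.58 ± 0.18, limma adjusted p = 0.286), with 17.2, 20.7 and 14.2 FPKM in the libraries labelled IRE1_KO GMP, against 9.57, 12.9 and 11.2 FPKM in WT GMP. Nop10 was at 535, 473 and 471 FPKM in the libraries labelled IRE1_KO GMP and 599.9, 629 and 594 FPKM in WT GMP (-0.30 ± 0.11, limma adjusted p = 0.349). Gar1 was at 45.8, 43.5 and 42.3 FPKM in the libraries labelled IRE1_KO GMP and 42.1, 29.5 and 29.5 FPKM in WT GMP (limma adjusted p = 0.458). The groups did not overlap for these 3 genes, which held upward for 17.1% and downward for 7.81% of all genes, and 0 of 102 other biogenesis genes passed.

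The label IRE1_KO_ITD was compared with ITD to ask what the deletion, as labelled, does beside the oncogene. In LSK 6 genes fell and 2 rose in the libraries labelled IRE1_KO_ITD, where 6.96% of all genes were lower and 13.3% higher, and the values of 39 of the 44 genes lay below 0, with a median of -0.15 against 0.06. The 2 most abundant proteins of the box H/ACA particle were among the 6. Nop10 had 409, 432 and 433 FPKM in the libraries labelled IRE1_KO_ITD LSK, against 634, 633 and 568 FPKM in ITD LSK (-0.52 ± 0.11, limma adjusted p = 0.00779). Nhp2 had 169, 164 and 168 FPKM in the libraries labelled IRE1_KO_ITD LSK, against 241, 233 and 241 FPKM in ITD LSK (-0.51 ± 0.12, limma adjusted p = 0.0165). For Nop10 the libraries labelled IRE1_KO_ITD lay below those of WT LSK (446 to 486 FPKM), and for Nhp2 within their range (146 to 192 FPKM). Both genes had no overlap with ITD LSK, which held downward for 16.4% of all genes.

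The others that fell were Nip7 (-0.45 ± 0.09), with 24.0, 25.1 and 26.1 FPKM in the libraries labelled IRE1_KO_ITD LSK against 36.0, 33.7 and 33.9 FPKM in ITD LSK, the small-subunit factor Pno1 (-0.43 ± 0.13), and the large-subunit factors Mrto4 (-0.40 ± 0.11) and Nop16 (-0.39 ± 0.12). Noc2l (0.85 ± 0.23) and Rrs1 (1.05 ± 0.27) rose, as they did under the IRE1_KO label alone. Rrs1 had 15.2, 14.5 and 26.4 FPKM in the libraries labelled IRE1_KO_ITD LSK, against 5.94, 8.70 and 10.4 FPKM in ITD LSK. No library here has the tag. In GMP neither gene was higher by mean in the libraries labelled IRE1_KO_ITD than in ITD. Noc2l averaged 59.0 FPKM in the libraries labelled IRE1_KO_ITD GMP and 68.4 FPKM in ITD GMP. Rrs1 averaged 24.5 and 32.8 FPKM, and the groups overlapped for both genes. The count moved with the processing: 8 as deposited, 15 with a median-ratio size factor (13 of them lower), 4 with sex as a covariate, and 2 to 6 without single libraries. It was 2 without replicate 3 and 5 without replicate 2 of the group labelled IRE1_KO_ITD LSK, 5 without ITD LSK replicate 1 and 4 without replicate 2 or 3. Of 15 other settings, Pno1 lost its call in 8, Mrto4 in 5, Nhp2 in 4, Rrs1 in 3 and Nop10 in 1. The call of Nip7 held in all 15. With the size factor 1340 of all genes were higher and 1111 lower, where it was 1586 and 832 as deposited. With sex as a covariate the split was 1336 and 543. Of the other biogenesis genes 3 rose and 12 fell, with Taf1d (-0.51 ± 0.09), Rsl24d1 (-0.39 ± 0.07), Utp11l (-0.41 ± 0.08) and Nol9 (0.68 ± 0.16) first by p. Of the markers, 7 of 10 monocyte genes, 6 of 10 late neutrophil genes and 1 of 9 B cell genes fell, with monocyte sums of 95.2 to 236 FPKM in the libraries labelled IRE1_KO_ITD and 294 to 699 FPKM in ITD LSK; their part in the result was not tested. No S phase gene passed.

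**Figure D4:**
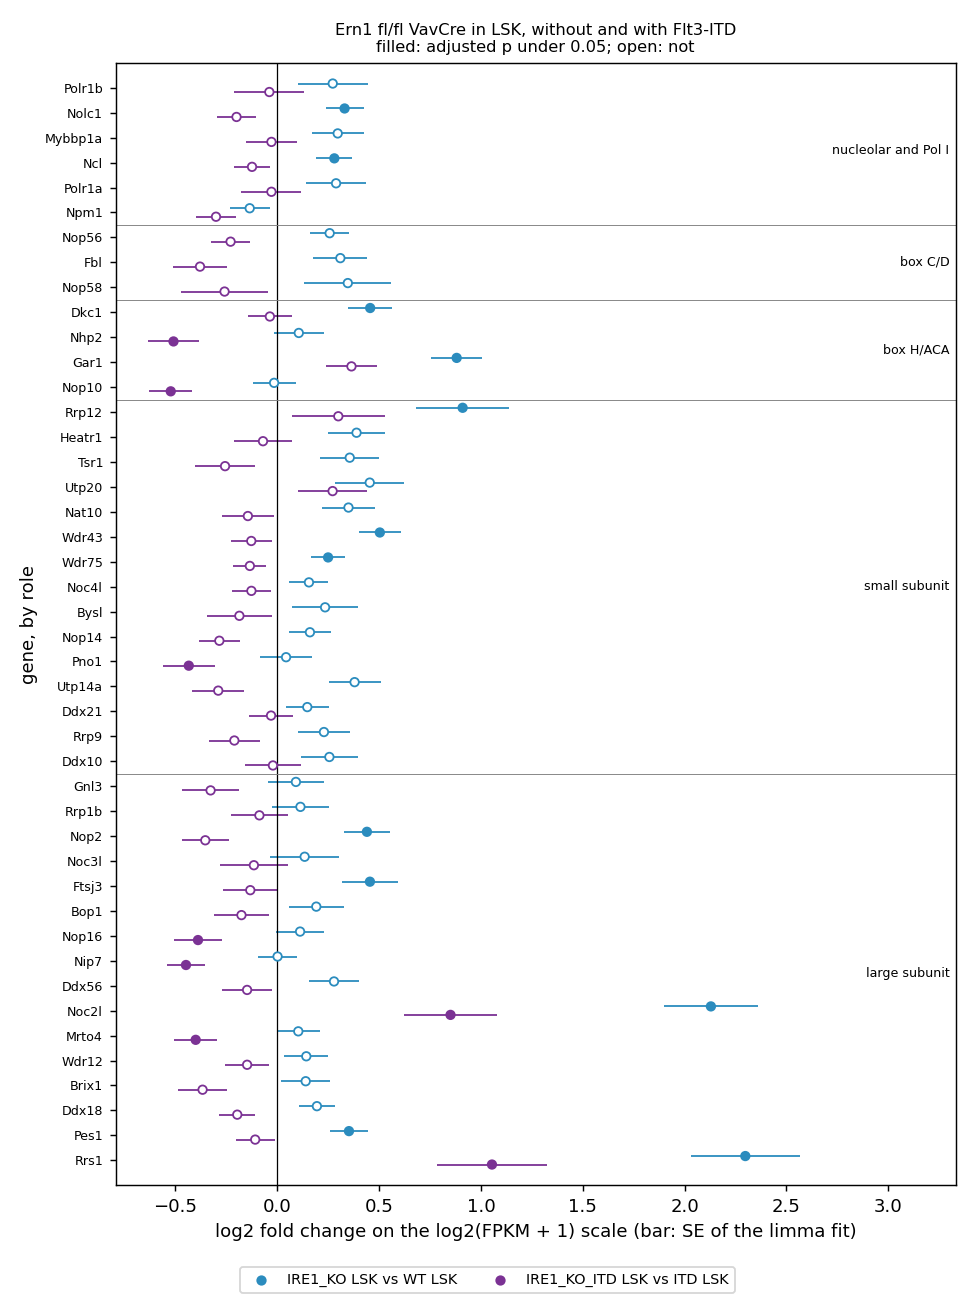
Points give log2 fold changes in LSK for each of the 44 genes on the log2(FPKM + 1) scale, in blue for the libraries labelled IRE1_KO over WT and in purple for those labelled IRE1_KO_ITD over ITD, with bars of 1 SE and filled points where the limma adjusted p was under 0.05. Most blue points lie right of 0 and most purple points left of it, and Noc2l and Rrs1 lie far to the right in both.

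In GMP none of the 44 genes passed between the libraries labelled IRE1_KO_ITD and ITD with limma, where 0.916% of all genes were higher and 0.916% lower, while 7 had an unadjusted p under 0.05. The values lay above 0 for 40 of the 44 genes, with a median of 0.21 against 0.07 over all genes. Wdr12 had 54.0, 54.8 and 52.8 FPKM in the libraries labelled IRE1_KO_ITD GMP, against 44.7, 41.2 and 38.9 FPKM in ITD GMP (0.37 ± 0.09, limma adjusted p = 0.0596). Npm1 had 703, 728 and 686 FPKM in the libraries labelled IRE1_KO_ITD GMP, against 553.5, 551 and 459.7 FPKM in ITD GMP (0.44 ± 0.11, limma adjusted p = 0.0673). Ddx10 had 21.3, 24.7 and 24.3 FPKM in the libraries labelled IRE1_KO_ITD GMP, against 18.5, 16.03 and 15.6 FPKM in ITD GMP (limma adjusted p = 0.116). The groups did not overlap for these 3, which held upward for 14.2% of all genes, and without ITD GMP replicate 1 Wdr12 (limma adjusted p = 0.0275) and Npm1 (limma adjusted p = 0.0432) passed, in a count of 3. With a size factor all calls were 81 higher and 153 lower, against 103 and 103 as deposited.

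Whether the ITD effect differed with the Ern1 label was tested as an interaction. In LSK the ITD effect was lower with the label for all 44 genes, with a median difference of -0.46, while that of all genes tested was -0.14. Quantile normalization moved these medians to -0.21 and 0.02, and the size factor to -0.325 and -0.016. The difference passed for 4 genes, all lower, where 5.58% of all genes were lower and 1.36% higher. They were Nop2 (-0.79 ± 0.16, limma adjusted p = 0.0185), Wdr43 (-0.63 ± 0.14, limma adjusted p = 0.0281), Nolc1 (-0.53 ± 0.13, limma adjusted p = 0.0388) and Noc2l (-1.28 ± 0.32, limma adjusted p = 0.0409). This count was 0 under quantile normalization and with sex as a covariate, and ran from 0 to 11 without single libraries: 0 without ITD LSK replicate 3, 1 without replicate 2 of any LSK group, 2 without replicate 1 of the group labelled IRE1_KO_ITD or WT replicate 3, 8 without ITD replicate 1, 9 without replicate 3 of the group labelled IRE1_KO and 11 without WT replicate 1. All calls were 163 higher and 667 lower as deposited, 232 and 353 after quantile normalization and 215 and 322 with a size factor. With sex as a covariate they were 16 and 66. The tagged libraries labelled IRE1_KO LSK enter each of these values. Of the other biogenesis genes 9 of 102 were lower, Mphosph10 (-0.69 ± 0.13), Nol9 (-1.05 ± 0.23), Nifk (-0.53 ± 0.11) and Utp11l (-0.53 ± 0.12) first. In GMP none of the 44 passed, as was the case for all 11249 genes tested (0%), and 4 of the 44 had an unadjusted p under 0.05; Npm1 had the smallest (0.55 ± 0.15, limma adjusted p = 0.255), followed by Wdr12 (0.36 ± 0.12) and Nop10 (0.40 ± 0.16).

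The 44 genes lie on 17 chromosomes, with Dkc1 and Utp14a on the X chromosome. Small nucleolar RNAs, the guides of the same particles, lie inside 7 of them by the GENCODE annotation: Ncl, Nop56, Nop58, Dkc1, Wdr43, Tsr1 and Gnl3. Nop56 holds 5 and Nop58 holds 4. Exons of 19 genes overlap those of another gene, in 15 of them those of a protein-coding gene, such as Idh3b for Nop56 and Pbrm1 for Gnl3, and values of such genes are uncertain where reads were not assigned by strand.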

How the data were processed

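RNA from 24 libraries of sorted LSK and GMP cells was sequenced. Per the submitters' processing notes, STAR and Cufflinks were used with mm10; the sources used here give no versions. The authors deposited FPKM per gene symbol. Per the labels' protocols libraries were made with SMART-Seq v4 and Nextera XT, while the series text has a stranded TruSeq kit; this was not settled. The members and gene lists were chosen with earlier results of these data known.

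A group-means model of log2(FPKM + 1) was run in limma 3.58.1 (R 4.3.3), with variances moderated along a trend. Each population's 12 libraries shared a fit; GMP against LSK, and the ITD effect between populations, used all 24. Tested were genes that reached 1 FPKM in 3 or more libraries of a fit, with Benjamini-Hochberg adjustment over all of them and a threshold of 0.05. No count test was run, since FPKM are not counts. The procedure was tested on simulated data. Positions are from GENCODE M21 on GRCm38 (mm10), and promoter windows from RefSeq on GRCm38.p6. In each role, the called members ranked 1 to 3 by p were given with values, and of the other biogenesis genes those ranked 1 to 4; with fewer than 3 members called, the first 3 by p were given. Further members were named after their values were seen. Read totals were not at hand, so the depth behind a value is known only as a ratio between libraries; correlations between replicates ran from 0.971 to 0.983. Alternatives were no filter, a pseudocount of 0.1, quantile normalization, a median-ratio size factor, sex as a covariate, a replicate block, a fit restricted to both groups, leaving out tagged or single libraries, and, chosen after seeing the data, a loess correction (span 0.3) for GC content and length. Other steps ran in Python 3.11.15 (pandas 2.3.3, numpy 2.4.6, matplotlib 3.10.9).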

Additional observations from a re-analysis of the deposited data

Results flagged for a closer look

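The ITD effect on 17 ribosome biogenesis genes differed between GMP and LSK by the test of the difference itself, and each is given here as the log2 fold change in GMP minus that in LSK. The values were -0.86 for Ncl and -0.84 for Nolc1, -0.63 for Nop56, and -0.69, -0.64 and -0.61 for Nhp2, Nop10 and Dkc1. Among small-subunit factors they were -1.22 for Heatr1, -1.0 for Rrp12, -0.83 for Tsr1, -0.79 for Utp20, -0.71 for Wdr75 and -0.67 for Wdr43. Among large-subunit factors they were -0.95 for Ftsj3, -0.89 for Noc3l, -0.65 for Nop16, -0.62 for Ddx18 and -0.56 for Wdr12.

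In LSK the ITD effect was lower with the label IRE1_KO than without it for Nop2 (-0.79), Wdr43 (-0.63), Nolc1 (-0.53) and Noc2l (-1.28), again by the test of the difference. Of 19 other settings, the call was lost in 14 for Noc2l, 14 for Nolc1, 10 for Wdr43 and 3 for Nop2. None of the 44 genes passed under quantile normalization or with sex as a covariate. The tagged libraries labelled IRE1_KO LSK enter each value.

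For 2 genes every library labelled IRE1_KO_ITD lay below every ITD library in LSK and above every ITD library in GMP. Npm1 had log2 fold changes of -0.30 in LSK and 0.44 in GMP, and Wdr12 of -0.15 in LSK and 0.37 in GMP. This difference between the populations was not tested, and none of the 4 values passed the threshold.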

How the results depend on the processing

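Of 1284 recomputed values of named members, 1110 kept their direction and side of the threshold, 168 kept the direction but lost the call, 5 gained one and 1 changed sign: Wdr75 in the libraries labelled IRE1_KO LSK against WT LSK, at -0.047 under quantile normalization. The median of the 44 genes in ITD GMP against WT GMP ran from -0.021 without ITD GMP replicate 1 to 0.23 without replicate 2. Quantile normalization moved the median to 0.50 for ITD LSK against WT LSK. For the libraries labelled IRE1_KO LSK against WT LSK it moved to 0.014, and for those labelled IRE1_KO_ITD LSK against IRE1_KO LSK to 0.316. The median difference of the ITD effect with the label in LSK moved to -0.212. Counts of members called that moved by over 1.5 times were as follows, and the cause was not tested. For the libraries labelled IRE1_KO LSK against WT LSK (12), the count was 3 with quantile normalization, 6 with the size factor, 6 in a fit restricted to both groups and 4 with the GC and length correction. For those labelled IRE1_KO_ITD LSK against ITD LSK (8), it was 5 without a filter, 15 with the size factor, 4 with sex as a covariate and 13 with the GC and length correction, and for those labelled IRE1_KO_ITD LSK against IRE1_KO LSK (15) it was 23 with quantile normalization. The difference of the ITD effect with the label in LSK (4) gave 2 without a filter, 0 with quantile normalization, 1 with the size factor, 0 with sex and 2 with the GC and length correction. ITD GMP against WT GMP (0) gave 1 with the size factor and 1 with the correction, and the group labelled IRE1_KO_ITD GMP against that labelled IRE1_KO GMP (3) gave 1 and 1. Leaving out single libraries gave 30 to 38 for ITD LSK against WT LSK, 0 to 2 for ITD GMP against WT GMP, 8 to 15 for IRE1_KO_ITD against IRE1_KO in LSK and 1 to 3 in GMP, 4 to 13 for IRE1_KO against WT in LSK and 0 in GMP, 2 to 6 for IRE1_KO_ITD against ITD in LSK and 0 to 3 in GMP, 14 to 19 for WT GMP against WT LSK, 11 to 27 for the ITD effect between populations, 0 to 11 for its difference with the label in LSK and 0 in GMP.

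Same-numbered libraries were not taken as pairs: with group means removed, correlations ran from -0.372 to 0.198 over 27 pairs of groups, and in 1 of them (ITD GMP and ITD LSK) every pair was over 0.1. Replicates 2 and 3 labelled IRE1_KO_ITD differed in sex between LSK and GMP. The block over both populations therefore joined libraries of different animals there. With the replicate block, counts in the order ITD against WT, IRE1_KO_ITD against IRE1_KO, IRE1_KO against WT and IRE1_KO_ITD against ITD were 40, 16, 12 and 10 in LSK and 0, 3, 0 and 0 in GMP, and 19, 18, 3 and 0 for WT GMP against WT LSK, the ITD effect between populations and its difference with the label in LSK and GMP. The counts behind a value are unknown, so no counting error is given for the lowest genes.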
